A study of Homo sapiens with 8 samples.

Results

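The genes described here are 45 that human cells use to repair DNA double-strand breaks and crosslinks between DNA strands, or to signal such damage. The rule lists them by name and uses no measured value, though the list was drawn up with earlier results of these data known. They comprise 19 genes of homologous recombination, 9 of the Fanconi pathway, 5 of end joining, 3 of mismatch repair, 6 of the damage checkpoint and 3 of single-strand break repair. Their RNA was measured in MIA PaCa-2, an established human pancreatic carcinoma line, on Affymetrix PrimeView arrays. In the PA group, 4 samples received 30 µM pachymic acid (PA), a triterpenoid of the fungus Poria cocos, for 24 h. In the DMSO group, 4 samples received the solvent with 0 µM PA for the same 24 h. Both groups shared the same line and medium, and a single cell line is the only model. Single-symbol probe sets were found for 41 of the 45 genes. BRCA2, RBBP8, FANCA and FANCD2 had none in the tables used and were not analysed here.

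A double-strand break can be repaired by homologous recombination, which copies the lost sequence from the sister chromatid and therefore works mainly in S and G2 phase, or by end joining, which ligates the ends directly throughout the cycle. For recombination the ends are first resected to single strands, and BRCA1, PALB2 and BRCA2 then help to assemble the protein filament that searches for the matching sequence. Crosslinks are recognised by the Fanconi core complex, which attaches ubiquitin to FANCD2 and FANCI. The kinases ATM and ATR signal the damage to CHEK2 and CHEK1. Many repair genes are transcribed more strongly as cells enter S phase, through E2F factors.

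All levels below are log2 signals after RMA, the robust multi-array average, in which 1 unit is a doubling. A change is the PA mean minus the DMSO mean on that scale. A probe set was tested when the higher group mean was at least 4, which kept 38748 of 49395 probe sets and 15226 genes. Each gene was read at its brightest single-symbol probe set, and levels of different probe sets cannot be set against each other. Raised and lowered mean a Benjamini-Hochberg adjusted p under 0.05 in limma, at any fold. The labels do not say whether the 4 samples of a group came from separate cultures, so the p-values measure the spread between these samples only.

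The 8 arrays were alike, with medians between 5.71 and 5.77 and correlations of 0.9964 to 0.9977 within groups and 0.9931 to 0.9964 between groups. The keratins KRT8, KRT18 and KRT19 and vimentin (VIM) were bright in every array, with group means of 11.5 or more. KRT8 and KRT18 were the 2 raised of 7 epithelial and carcinoma markers. KRT19 had a change of -0.165 and did not pass (limma adjusted p = 0.0847). The keratin KRT7 and the adhesion genes EPCAM and CDH1 lay near the limit of 4. Of 6 acinar and endocrine markers 4 were measured, at PA means of 3.308 to 6.558 and DMSO means of 3.22 to 6.47, and 0 passed the test (1 had an unadjusted p under 0.05). The leukocyte marker PTPRC was below 4 in both groups, while CD68 averaged 8.545 in PA arrays and 8.435 in DMSO arrays. The endothelial marker CDH5 averaged 7.928 in PA arrays and 7.537 in DMSO arrays, and COL3A1 7.225 and 7.27. Among the 8 fibroblast and endothelial and the 5 measured leukocyte markers, COL1A2 averaged 9.877 in PA arrays and 10.405 in DMSO arrays, CD14 averaged 6.83 in PA arrays and 7.35 in DMSO arrays, both were lowered, and no other marker of those lists passed the test. Background measures of the arrays moved with the groups. In the 8 background control sets whose probes hold at least 18 G or C among 25 bases, the mean signal was 7.117, 7.02, 6.92 and 7.048 in PA arrays, against 6.701, 6.59, 6.945 and 6.832 in DMSO arrays. This GC-rich background was higher in PA arrays on average, and DMSO array 3 lay above PA array 3. The other background control sets averaged 3.167, 3.168, 3.156 and 3.146 in PA arrays, against 3.049, 3.071, 3.135 and 3.118 in DMSO arrays. There every PA array lay above every DMSO array. Only the GC-rich background was used as a covariate below.

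Of the 41 measured genes, 5 were raised in PA, 4 were lowered and 32 did not pass the test. Across the 15226 genes of the arrays, 8.23% were raised and 10.5% were lowered, so the 12.2% and 9.76% of the repair genes lay near the background. The median change was 0.02 for the repair genes and 0.015 for all genes. No repair gene reached a change of 1.5-fold. In 6 of the 41 all PA values lay above all DMSO values, and in 4 all lay below. Over the 15226 genes these were 1810 and 2204, so groups that do not overlap were common on these arrays. Of their 114 tested probe sets, 7 were raised and 14 were lowered, against 8.0% and 9.07% of all tested probe sets. The raised genes were all in the recombination group, where 5 of 17 were raised and 0 lowered. In the other groups 0 of 24 were raised and 4 lowered. These counts per group were not tested against each other. Each array measured the RNA of a whole cell sample, so fewer cells in one stage of the cell cycle and less RNA per cell cannot be told apart.

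**Figure D1:**
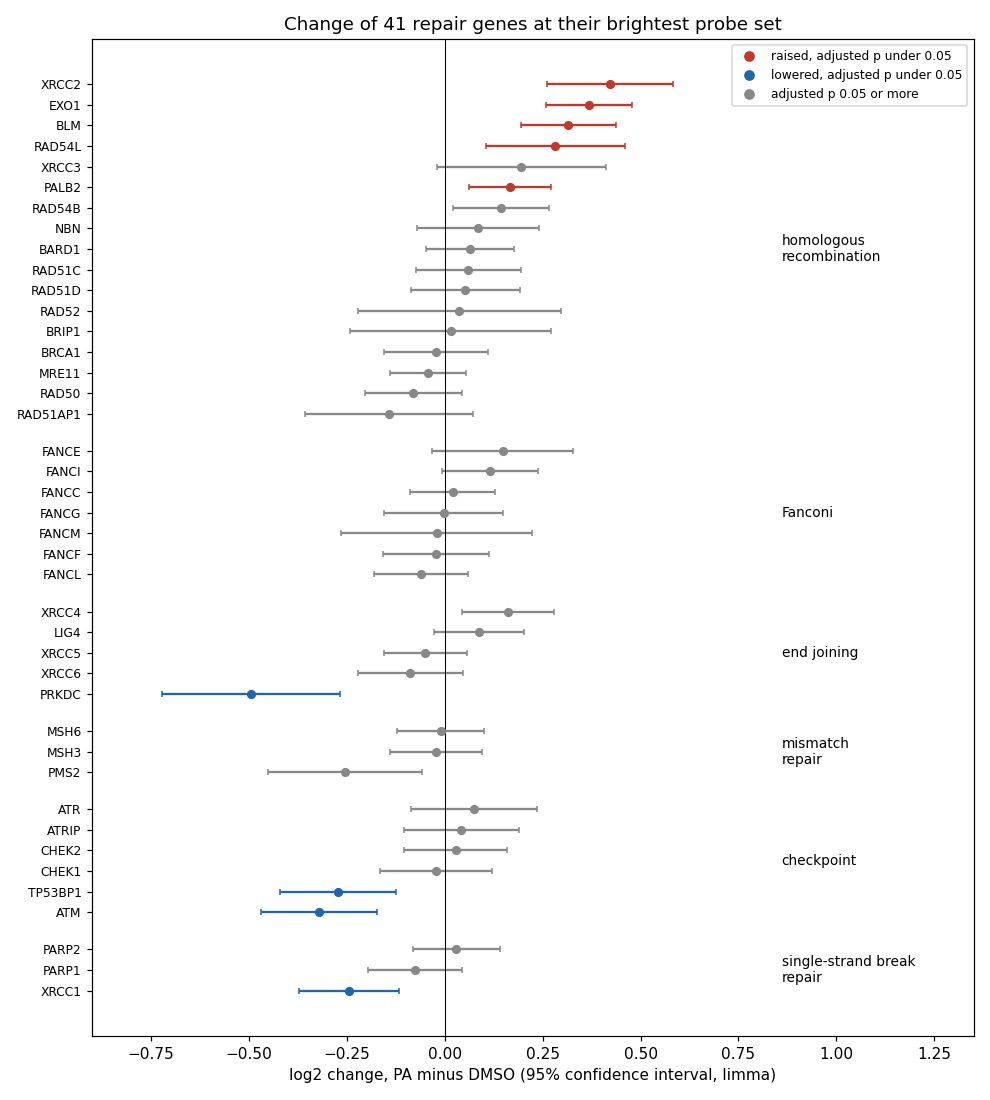
Change of each of the 41 measured repair genes at its brightest probe set, as log2 PA minus DMSO on the horizontal axis, with genes in rows by group and bars for the 95% confidence interval from limma. The 5 raised genes (red) are all in the recombination group and the 4 lowered genes (blue) are PRKDC, ATM, TP53BP1 and XRCC1.

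The raised recombination genes act at successive steps: resection (EXO1, BLM), filament assembly (PALB2, XRCC2) and strand exchange (RAD54L). XRCC2 belongs to a complex with RAD51C and RAD51D that binds single-stranded DNA during recombination. Its signal was 7.20, 7.33, 7.33 and 7.23 in PA arrays, against 6.71, 6.80, 6.87 and 7.02 in DMSO arrays. Every PA array lay above every DMSO array. The change was 0.42 (SE 0.0712, limma adjusted p = 0.00525), or 1.34-fold, with means of 7.272 ± 0.0675 in PA and 6.85 ± 0.131 in DMSO (SD, 4 arrays each). The second XRCC2 probe set was raised too, by 0.21 (limma adjusted p = 0.042), with values of 7.18, 7.12, 7.01 and 6.97 in PA arrays and 6.89, 6.86, 6.79 and 6.91 in DMSO arrays.

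EXO1 is a nuclease that resects DNA from the break and also removes the strand in mismatch repair. It had 8.25, 8.34, 8.22 and 8.23 in PA arrays, against 7.94, 7.84, 7.88 and 7.91 in DMSO arrays. The groups did not overlap, and the means were 8.26 ± 0.0548 in PA and 7.892 ± 0.0427 in DMSO (SD, 4 arrays each). At the brightest probe sets, EXO1 had the smallest adjusted p of the repair genes (0.00193 in limma), at a change of 0.37 (SE 0.0487) or 1.29-fold. BLM, the RecQ helicase mutated in Bloom syndrome, had 8.14, 8.07, 8.15 and 8.02 in PA arrays and 7.71, 7.77, 7.77 and 7.87 in DMSO arrays. Here too the groups were apart. The change of BLM was 0.315 (SE 0.0539, limma adjusted p = 0.00554), or 1.24-fold.

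RAD54L, a motor protein that moves along duplex DNA during strand exchange, had 7.60, 7.65, 7.57 and 7.38 in PA arrays, against 7.13, 7.20, 7.36 and 7.38 in DMSO arrays. PA array 4 and DMSO array 4 were level, so the groups touched. The change was 0.28 (SE 0.0789, limma adjusted p = 0.038), or 1.22-fold. PALB2, the bridge between BRCA1 and BRCA2, had 8.75, 8.76, 8.72 and 8.76 in PA arrays and 8.5, 8.62, 8.58 and 8.62 in DMSO arrays. These 4 PA values were close together and above all DMSO values. The change of PALB2 was the smallest among the called genes, at 0.17 (SE 0.0466, limma adjusted p = 0.0376) or 1.12-fold. XRCC2, EXO1 and BLM stayed past the threshold when any of the 8 arrays was left out. PALB2 lost its call without any 1 of them (adjusted p 0.0528 to 0.0912), and RAD54L without PA array 1, 2 or 3 or DMSO array 1 or 2 (adjusted p 0.0255 to 0.0972 over all 8 arrays left out).

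**Figure D2:**
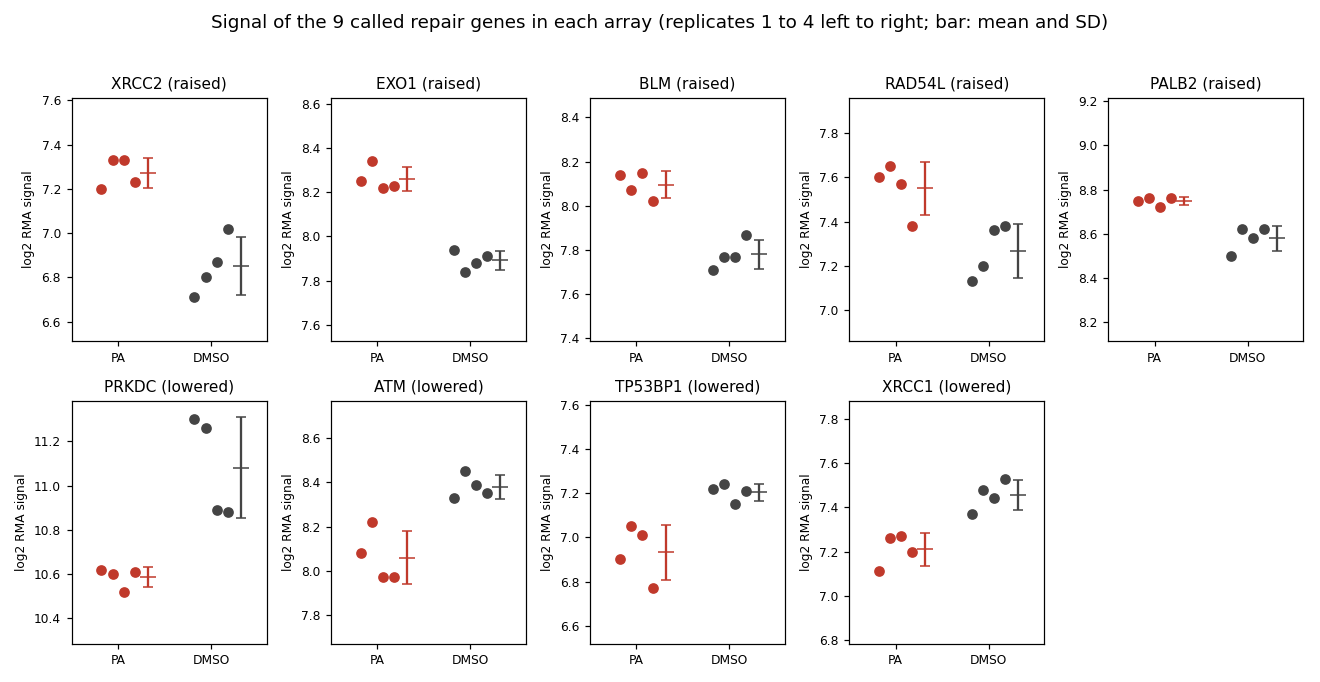
Log2 RMA signal of the 9 called repair genes in each array, PA left and DMSO right in each panel, with points for replicates 1 to 4 and bars for the mean and SD. In 8 panels the PA and DMSO points do not overlap, and in RAD54L the fourth arrays of both groups are level at 7.38. Of all 15226 genes, 1810 had every PA value above every DMSO value and 2204 had every PA value below.

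The promoters of the raised genes are printed to show which motifs each holds around the start site, and none of those searched was in all 5. Each runs from 250 bases before to 50 bases after the start in RefSeq, assembly GRCh38.p14, on the strand of the gene. Searched on both strands were the E2F site (TTTCCCGC, TTTGGCGC, TTTCGCGC or TTTGCCGC), the CHR element (TTTGAA or TTCGAA) of genes expressed late in the cycle, and the CCAAT box (CCAAT), and every match is in capitals, as its reverse complement where it lies on the opposite strand. No motif overlapped another in these promoters. EXO1 (chr1:241847954-241848253, plus strand) and XRCC2 (chr7:152676092-152676391, minus strand) hold 1 E2F match each, 5 to 12 and 22 to 29 bases past the start. The EXO1 start used here lies downstream of the first base of the gene (241847986), so most of that window is inside the gene. BLM (chr15:90717096-90717395, plus strand) holds 3 CCAAT boxes, RAD54L (chr1:46247438-46247737, plus strand) holds 2 and PALB2 (chr16:23641261-23641560, minus strand) holds 1.
EXO1: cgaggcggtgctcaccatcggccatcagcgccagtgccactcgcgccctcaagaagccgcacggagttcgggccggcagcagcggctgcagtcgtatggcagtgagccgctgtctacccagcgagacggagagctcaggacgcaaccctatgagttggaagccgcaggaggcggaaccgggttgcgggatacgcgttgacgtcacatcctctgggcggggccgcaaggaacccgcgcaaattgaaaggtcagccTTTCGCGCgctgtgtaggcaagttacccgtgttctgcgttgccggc
XRCC2: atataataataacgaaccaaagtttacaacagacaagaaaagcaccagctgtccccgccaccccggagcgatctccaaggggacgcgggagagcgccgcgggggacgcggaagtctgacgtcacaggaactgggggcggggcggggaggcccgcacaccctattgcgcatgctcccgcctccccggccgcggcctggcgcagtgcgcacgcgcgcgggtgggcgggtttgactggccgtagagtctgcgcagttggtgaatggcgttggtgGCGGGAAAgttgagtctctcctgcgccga
BLM: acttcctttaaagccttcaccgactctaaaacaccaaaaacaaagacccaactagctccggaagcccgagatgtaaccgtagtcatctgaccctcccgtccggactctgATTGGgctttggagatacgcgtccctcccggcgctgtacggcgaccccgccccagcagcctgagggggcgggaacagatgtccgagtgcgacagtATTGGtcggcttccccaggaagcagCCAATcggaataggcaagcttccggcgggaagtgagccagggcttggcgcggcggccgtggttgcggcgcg
RAD54L: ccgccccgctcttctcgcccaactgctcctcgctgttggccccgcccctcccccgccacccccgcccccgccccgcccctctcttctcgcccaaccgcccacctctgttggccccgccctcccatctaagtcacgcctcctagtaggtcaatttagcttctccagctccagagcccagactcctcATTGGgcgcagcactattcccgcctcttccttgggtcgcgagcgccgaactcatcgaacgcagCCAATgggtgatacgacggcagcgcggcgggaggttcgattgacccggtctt
PALB2: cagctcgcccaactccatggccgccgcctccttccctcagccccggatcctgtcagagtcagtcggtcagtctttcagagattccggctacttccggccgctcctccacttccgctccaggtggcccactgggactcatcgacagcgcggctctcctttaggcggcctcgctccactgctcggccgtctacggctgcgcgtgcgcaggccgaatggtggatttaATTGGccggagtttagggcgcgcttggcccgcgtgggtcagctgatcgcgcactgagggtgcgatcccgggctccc

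Promoters were matched for 40 of the 45 genes. The E2F letters were in 9 of them (22.5%), against 3.31% of all 35116 promoters and 4.81% of the 12209 promoters of tested genes. A CCAAT box was in 20 of 40 (50%), against 34.6% of all promoters and 36.1% of those of tested genes. A CHR match was in 5 of 40 (12.5%), against 16.4% and 12.1%. An E2F match was in 2 of the 5 raised genes. All 3 mismatch repair genes, FANCC and XRCC6 held one too and did not pass the test, and FANCA and FANCD2 held one and were not analysed here. A match is a description of letters, and binding of a factor was not measured.

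The other 12 measured recombination genes did not pass the test. Among them, BRCA1 had a change of -0.02 (95% interval -0.155 to 0.11) and BARD1, with which BRCA1 forms a ubiquitin ligase, 0.065 (-0.048 to 0.178). BRIP1, a helicase bound to BRCA1, had 0.015 with a wider interval of -0.241 to 0.271. Of the genes that work with XRCC2 or beside it, RAD51C had 0.06, RAD51D 0.05 and XRCC3 0.195 (-0.021 to 0.411). A dimmer RAD51C probe set had 0.14 (limma adjusted p = 0.0744) and a dimmer RAD51D probe set 0.195 (limma adjusted p = 0.0613). In both, all PA values lay above all DMSO values, and neither passed. The remaining tested ones had 0.07 for RAD51C and 0.11 and -0.025 for RAD51D, with overlapping groups. RAD54B, a relative of RAD54L, had 8.18, 8.22, 8.15 and 8.24 in PA arrays and 7.95, 8.13, 8.03 and 8.11 in DMSO arrays. The RAD54B groups did not overlap, and its change of 0.14 missed the threshold (limma adjusted p = 0.103). RAD51AP1, which promotes strand invasion, had -0.14 (-0.357 to 0.072). Its other probe sets ranged from -0.20 to 0.145 and did not pass. In the one at 0.145 all PA values lay above all DMSO values (limma adjusted p = 0.0545).

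MRE11, RAD50 and NBN form the complex that first binds and trims a break. Their brightest probe sets had changes of -0.04 for MRE11, -0.08 for RAD50 and 0.085 for NBN, none past the threshold. The other tested MRE11 probe sets had -0.12, -0.36 and -0.17 and did not pass (limma adjusted p = 0.139, 0.0803 and 0.122). The NBN probe sets ranged from -0.13 to 0.20, none past the threshold. Of these 3 genes, only RAD50 had probe sets past the threshold. The second RAD50 probe set was at 10.15, 10.23, 10.19 and 10.16 in PA arrays and 10.54, 10.49, 10.34 and 10.41 in DMSO arrays, a change of -0.26 (limma adjusted p = 0.0131). The dimmest was at 8.21, 8.05, 8.01 and 8.18 in PA arrays and 8.33, 8.40, 8.55 and 8.40 in DMSO arrays, a change of -0.31 (limma adjusted p = 0.015). In both, all PA values were below all DMSO values. The mean of all RAD50 probe sets was lowered by 0.22 (limma adjusted p = 0.00592). RAD52, a strand annealing protein, was dim, and 1 of its 10 tested probe sets had a change of 0.375 (limma adjusted p = 0.0411), at 4.33, 4.83, 4.68 and 4.77 in PA arrays and 4.15, 4.40, 4.32 and 4.24 in DMSO arrays, where the groups overlapped.

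In the Fanconi pathway, 0 of 7 measured genes passed the test in limma at their brightest probe sets. At these probe sets 0 had an unadjusted p under 0.05 or passed the plain ANOVA. The core complex members FANCC, FANCE, FANCF, FANCG, FANCL and FANCM, of which FANCL is the ubiquitin ligase and FANCM the DNA translocase, had changes between -0.06 and 0.15. FANCI, the partner of FANCD2, had 0.115 (95% interval -0.008 to 0.238). A dimmer FANCI probe set had 0.20, with all PA values above all DMSO values, and did not pass (limma adjusted p = 0.0613). The dimmest had 0.02. A dim FANCL probe set had 0.19 and did not pass (limma adjusted p = 0.0622), and another had -0.09. FANCG was the closest to 0 of all measured repair genes, at -0.0025 (-0.155 to 0.15). FANCF alone had a probe set past the threshold, a dimmer one, at 6.09, 6.32, 6.18 and 6.23 in PA arrays and 6.63, 6.72, 6.39 and 6.54 in DMSO arrays. Its groups did not overlap and its change was -0.365 (limma adjusted p = 0.0147), while the brightest FANCF probe set had -0.02 (-0.157 to 0.112).

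Of the 5 end joining genes, PRKDC was lowered. PRKDC encodes the catalytic subunit of DNA-dependent protein kinase, which is held at the break by the Ku proteins XRCC5 and XRCC6. Its signal was 10.62, 10.60, 10.52 and 10.61 in PA arrays, against 11.30, 11.26, 10.89 and 10.88 in DMSO arrays. The PA arrays were close to each other, DMSO arrays 1 and 2 were higher than DMSO arrays 3 and 4, and the groups did not overlap. The change of -0.495 (SE 0.102, limma adjusted p = 0.0119) was the furthest from 0 of any repair gene at its brightest probe set, and the DMSO mean was 1.41 times the PA mean. Of the other PRKDC probe sets, 2 were lowered, by 0.305 (limma adjusted p = 0.0176) and 0.20 (limma adjusted p = 0.0455), and a dimmer one had -0.04. Leaving out any 1 array kept the PRKDC call.

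The Ku genes were bright and near 0, with XRCC5 at -0.05 (95% interval -0.156 to 0.056) and XRCC6 at -0.09 (-0.221 to 0.046). XRCC4, the scaffold of the ligase LIG4, had 9.37, 9.23, 9.24 and 9.25 in PA arrays and 9.04, 9.11, 9.12 and 9.17 in DMSO arrays. All PA values were above all DMSO values, and the change of 0.16 was just outside the threshold (limma adjusted p = 0.0624). The other XRCC4 probe sets had -0.125, -0.0025 and 0.19, with overlapping groups, and did not pass. LIG4 had 0.09 (-0.028 to 0.203). Of the mismatch repair genes, MSH3 and MSH6, which recognise mismatches and small loops, had -0.02 and -0.01. A dimmer probe set of each had -0.27 for MSH3 and 0.15 for MSH6, and neither passed. PMS2, a subunit of the nuclease that nicks the strand to be repaired, had a dim probe set at 4.90, 4.68, 4.79 and 4.78 in PA arrays and 5.20, 4.88, 5.18 and 4.91 in DMSO arrays. Its groups overlapped and its change was -0.255 (limma adjusted p = 0.0744). At the brightest probe sets of this group 0 of 3 genes passed in limma or in the plain ANOVA, and 1 had an unadjusted p under 0.05.

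Among the 6 checkpoint genes, ATM and TP53BP1 were lowered. ATM is the kinase that responds to double-strand breaks. Its brightest probe set had 8.08, 8.22, 7.97 and 7.97 in PA arrays, against 8.33, 8.45, 8.39 and 8.35 in DMSO arrays, with no overlap. The change was -0.32 (SE 0.0656, limma adjusted p = 0.0118). Another ATM probe set was lowered further, by 0.54 (limma adjusted p = 0.00411), with 7.61, 7.94, 7.88 and 7.82 in PA arrays and 8.39, 8.49, 8.20 and 8.32 in DMSO arrays. That distance was again beyond the spread of either group. One more was lowered by 0.24 (limma adjusted p = 0.0306), and the last tested one had -0.12. The ATM promoter (chr11:108222817-108223116, plus strand, GRCh38.p14) is shown as that of a lowered gene, with a CCAAT box on the opposite strand and a CHR match in capitals and no E2F match.
ATM: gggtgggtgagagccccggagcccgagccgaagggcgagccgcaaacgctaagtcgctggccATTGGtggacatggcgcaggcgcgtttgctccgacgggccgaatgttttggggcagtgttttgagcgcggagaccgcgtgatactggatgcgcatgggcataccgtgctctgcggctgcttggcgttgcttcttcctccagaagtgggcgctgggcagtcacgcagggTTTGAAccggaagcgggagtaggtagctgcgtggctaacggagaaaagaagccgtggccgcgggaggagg

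TP53BP1 encodes 53BP1, which binds modified chromatin at breaks and limits resection. Its brightest probe set had 6.90, 7.05, 7.01 and 6.77 in PA arrays, against 7.22, 7.24, 7.15 and 7.21 in DMSO arrays. PA lay below DMSO in every array, with a change of -0.27 (SE 0.0661, limma adjusted p = 0.0226). The call was lost without PA array 1 or DMSO array 1 or 2 (adjusted p 0.0253 to 0.0601 over the 8 arrays left out). A second probe set was lowered by 0.505 (limma adjusted p = 0.00119), at 6.48, 6.48, 6.39 and 6.50 in PA arrays and 7.0, 7.09, 6.87 and 6.91 in DMSO arrays, and another by 0.31 (limma adjusted p = 0.0205). A dimmer TP53BP1 probe set had 0.085 and did not pass. The other checkpoint genes did not pass: ATR had 0.075 (95% interval -0.086 to 0.236), its partner ATRIP 0.04, its target CHEK1 -0.02 (-0.166 to 0.121) and CHEK2, the target of ATM, 0.03 (-0.103 to 0.158). The CHEK1 probe sets ranged from -0.13 to 0.12.

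In single-strand break repair, XRCC1, the scaffold that gathers the ligase LIG3 and other enzymes at a nick, was lowered. It had 7.11, 7.26, 7.27 and 7.20 in PA arrays, against 7.37, 7.48, 7.44 and 7.53 in DMSO arrays. The groups did not overlap, and the change was -0.245 (SE 0.0565, limma adjusted p = 0.0188), with the DMSO mean 1.19 times the PA mean. The other XRCC1 probe sets had 0.02 and 0.18, and the mean of all 3 was at -0.01 (limma adjusted p = 0.885), so the XRCC1 call rests on 1 probe set. It was also lost without DMSO array 2. PARP1, which senses strand breaks and marks them with poly(ADP-ribose), had -0.075 at its brightest probe set and -0.305 at another (limma adjusted p = 0.0443), with 8.54, 8.67, 8.74 and 8.55 in PA arrays and 9.07, 9.09, 8.78 and 8.78 in DMSO arrays. PARP2 had 0.03 (95% interval -0.08 to 0.14).

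Of the 29 repair genes with 2 or more tested probe sets, 9 had at least 1 past the threshold, and in 0 were probe sets called in both directions. In 15 the changes had both signs. The same counts were not made over all genes, and a gene with more probe sets has more chances of a call. The 12 genes with 1 tested probe set include EXO1, BLM, RAD54L and PALB2, so XRCC2 is the only raised gene that a second probe set could bear on.

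**Figure D3:**
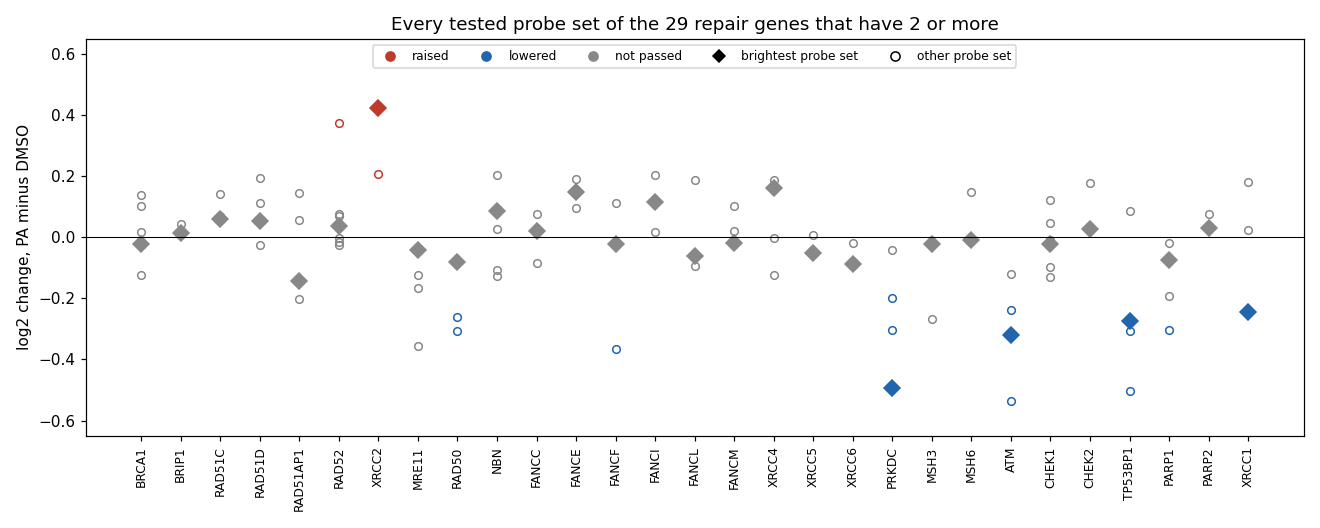
Change (log2 PA minus DMSO, vertical axis) of every tested probe set of the 29 repair genes with 2 or more, with diamonds for the brightest and open circles for the others, red where raised and blue where lowered. All tested probe sets of PRKDC, ATM and RAD50 lie below 0, and those of TP53BP1 and XRCC1 lie on both sides.

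The level of GC-rich background was higher in PA arrays on average. With it as a covariate in limma, 0 of the 9 passed, and 0 of all 41 repair genes (7 positive and 5 negative had an unadjusted p under 0.05). EXO1 came closest, with a change of 0.35 (SE 0.0741, adjusted p = 0.0614). ATM stayed at -0.32 and BLM at 0.29, with larger standard errors, while PRKDC moved to -0.26, RAD54L to 0.16 and TP53BP1 to -0.18. Of the 41 genes, 10 changed sign with the covariate, none of them among the 9. Standard errors of the 9 grew 1.27 to 1.6 times, and the changes were 0.528 to 0.993 of those without the covariate. Over all probe sets 369 were raised and 237 lowered with the covariate, against 3098 and 3516 without it. The covariate and the treatment move together in 8 arrays, and how much of each change belongs to either was not tested.

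**Figure D4:**
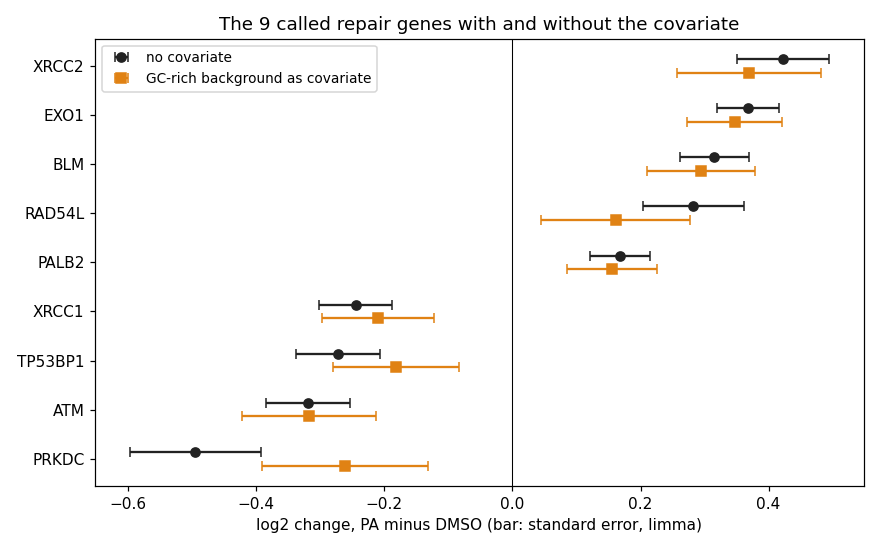
Change (log2 PA minus DMSO, horizontal axis) of the 9 called repair genes without a covariate (black circles) and with the GC-rich background of each array as a covariate (orange squares), with bars for the standard error in limma. All 9 keep their direction, and PRKDC and RAD54L move most towards 0.

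Other genes of the same pathways, 118 in 6 lists, were read in the same fit. Of 102 measured, 16 were raised and 8 lowered (15.7% and 7.84%, against 8.23% and 10.5% of all genes), with a median of -0.001. Genes of the Fanconi pathway and crosslink repair outside the 9 were 7 raised and 1 lowered of 19 (36.8% raised, against 8.23% of all genes). ERCC1, part of the nuclease that cuts beside a crosslink, had 11.49, 11.39, 11.44 and 11.52 in PA arrays and 11.08, 11.0, 11.08 and 11.05 in DMSO arrays, a change of 0.41 (limma adjusted p = 0.00126). FANCB, a core complex member, had 8.47, 8.57, 8.56 and 8.51 in PA arrays and 8.16, 8.22, 8.22 and 8.27 in DMSO arrays, a change of 0.31 (limma adjusted p = 0.00356). The groups were apart in both. UBE2T, the conjugating enzyme that works with FANCL, was raised by 0.275 and REV3L, the catalytic part of a translesion polymerase, was lowered by 0.255.

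Further recombination genes were 2 raised and 2 lowered of 27 (7.41% each, against 8.23% and 10.5% of all genes). POLQ, a polymerase of an alternative end joining route that was counted in this list, was raised by 0.33 (limma adjusted p = 0.00991) and FIGNL1 by 0.17. ABRAXAS1 and BABAM2, which like BRCC3 belong to the BRCA1-A complex, were lowered by 0.43 (limma adjusted p = 0.0074) and 0.17. Of 22 further checkpoint genes, 5 were raised and 3 lowered (22.7% and 13.6%). CDC25A, the phosphatase that CHEK1 marks for degradation, was raised by 0.60 (limma adjusted p = 0.00289), RAD9A of the 9-1-1 clamp by 0.31 and TIPIN of the fork protection complex by 0.27, and RAD17, the loader of that clamp, was lowered by 0.28. End joining had 1 raised (LIG3, 0.25) and 0 lowered of 11 (9.09% raised), where 1 had an unadjusted p under 0.05 on the lower side and the plain ANOVA called 1. Mismatch repair had 0 of 2 by either tool and at an unadjusted p under 0.05. Of 21 single-strand, base and nucleotide excision genes, 4.76% were raised and 9.52% lowered. FEN1 was raised by 0.26, and PARP3 and the damage sensor DDB2 were lowered, DDB2 by 0.53 (limma adjusted p = 0.000841).

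Genes that cells switch on for DNA replication were counted beside them. Of 38 measured S phase genes, 16 (42.1%, against 8.23% of all genes) were raised and 0 lowered, where 0 had an unadjusted p under 0.05 on the lower side and the plain ANOVA also called 16 and 0. Their median was 0.157. MCM10, which helps to start replication forks, was raised by 0.43 (limma adjusted p = 0.00146), the licensing factor CDC6 by 0.36 (0.0049), GINS3 of the replicative helicase by 0.32 (0.00355) and the histone chaperone CHAF1A by 0.28 (0.00526). Of 28 mitosis genes, 0 were raised (3 at an unadjusted p under 0.05 and 1 by the plain ANOVA). Lowered were 2 (7.14%, against 10.5% of all genes), KIF20A by 0.22 (limma adjusted p = 0.013) and CENPF by 0.24 (0.0137). The median of the 28 mitosis genes was -0.039. The raised S phase genes were 2 with the GC-rich covariate, 6 with the replicate number as a block, 9 without PA array 2 and 10 without DMSO array 2. The share of cells in each phase was not measured, and its part in the changes of the repair genes was not tested.

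**Figure D5:**
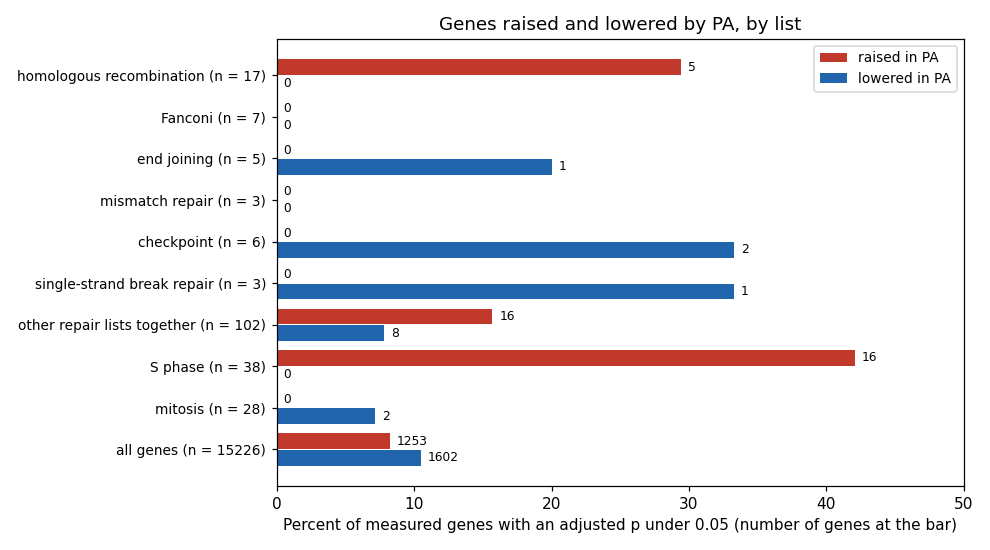
Percent of measured genes raised (red) and lowered (blue) in PA, in the 6 groups of repair genes, the other repair lists together, the S phase and mitosis lists and all genes, with the number of genes at each bar. At the brightest probe sets, the recombination group and the S phase list have raised genes only. End joining (1 gene), checkpoint (2), single-strand break repair (1) and mitosis (2) have lowered genes only. The other repair lists together have 16 raised and 8 lowered. Among these are 2 raised and 2 lowered for recombination, 1 and 0 for end joining and 5 and 3 for checkpoint.

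The lowered repair genes include long ones. The 5 raised genes span a median of 38.1 kb of the genome (30.8 to 98.8), the 4 lowered genes a median of 127 kb (32.2 to 187) and the 32 others a median of 55 kb (3.29 to 297), in GRCh38.p14. XRCC1 (chromosome 19, 43543311 to 43575527) is the shortest of the lowered genes, ATM covers 108223067 to 108369102 on chromosome 11 and TP53BP1 covers 43403061 to 43510640 on chromosome 15. These ranges overlap, and with 5 and 4 genes the difference was not tested.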

How the data were processed

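The arrays measured total RNA of 4 PA and 4 DMSO samples. The authors labelled it with a 3′ IVT kit and made the deposited log2 values in Partek with RMA, that is by correcting the background, normalizing quantiles and summarizing probes by median polish. GCOS, Partek and RMA are named in the submitters' processing notes without versions. Whether arrays of another cell line entered the normalization is not given in the sources used here. Quantile normalization gives all arrays 1 distribution, so changes are relative to the other probe sets. The number of arrays limits the precision.

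Symbols came from the platform annotation, in which 44988 probe sets have 1 symbol, 1832 several and 2473 none, and 102 are controls. PA was compared with DMSO in R 4.3.3 with limma 3.58.1 (functions lmFit and eBayes), two-sided, with no covariate and with Benjamini-Hochberg adjustment over the 38748 tested probe sets, and the code was checked on simulated data. A plain ANOVA of both groups, without the second cell line of the study's model, was an alternative, as were other filters, scalings, summaries, weights and blocks. Genes past the threshold are given in full. Of each other list the text names up to 4 of the smallest adjusted p, and the rest are counted. The members and lists were chosen with earlier results of these data known. Promoters are from RefSeq GRCh38.p14. Figures used Python 3.11.15 and matplotlib 3.10.9.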

Additional observations from a re-analysis of the deposited data

Results flagged for a closer look

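In 106 groups of 4 arrays, 1 for each condition of the probe sets in question, the distance of the most extreme array to its neighbour was set against the whole range (Dixon's test at the 95% level), and 2 stood out, where chance gives about 1 in 20. The XRCC4 signal of PA array 1 was 9.37, with the next PA array at 9.25 and the lowest at 9.23. The FANCC signal of DMSO array 3 was 6.52, with the next DMSO array at 6.63 and the highest at 6.64.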

How the results depend on the processing

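Over 20 other settings, no called repair gene changed direction, and 4 uncalled ones (RAD54B, XRCC4, PMS2 and RAD50) were called in at least 1. The fit with GC-rich background as covariate and the demand for 1.5-fold removed the raised (0) and the lowered (0) repair genes, and their probe sets were 0 raised in both and 1 lowered with the covariate and 0 at 1.5-fold. With the covariate other repair genes were 1 raised and 1 lowered, S phase genes 2 raised and mitosis genes 0 lowered, and at 1.5-fold these were 1, 0, 0 and 0. The replicate numbers did not pair the arrays, since deviations of same-numbered arrays correlated at -0.153 to 0.0527. The replicate block left 3 repair genes raised, losing PALB2, RAD54L and, among the lowered, TP53BP1. With the block, 4 of their probe sets were raised and 8 lowered, other repair genes were 6 raised and 5 lowered, S phase genes 6 raised and mitosis genes 0 lowered.

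Raised probe sets of the repair genes were 13 at a signal of at least 6, 11 after quantile normalization again and 12 with an intensity trend. Mitosis genes lowered were 7 at a signal of at least 6, 9 with the trend and 6 by the ANOVA. Mitosis genes raised were 2 at a signal of at least 6, 1 after quantile normalization, 3 with the trend, 1 by the ANOVA, 2 for the mean of all probe sets and 2 with 1 probe set per gene. PALB2 was lost with no filter, RAD54L with array weights and by the ANOVA, and XRCC1 for the mean of all probe sets. Leaving out 1 array gave 3 to 4 repair genes raised and 2 to 4 lowered (2 without DMSO array 2), 3 to 5 of their probe sets raised and 8 to 15 lowered, other repair genes 9 to 13 raised (9 without PA array 2, 10 without PA array 3) and 5 to 9 lowered (5 without PA array 4, DMSO array 2 or DMSO array 4), S phase genes 9 to 15 raised and 0 lowered, and mitosis genes 0 raised and 2 to 5 lowered (5 without DMSO array 3). The cause of these shifts was not tested. The median over all probe sets was 0.0175, 0.0095 and 0.02 under the 3 scalings, and a signal near the limit of 4 says little about a change.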

Other observations

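Some probe sets match a repair gene together with another gene or a pseudogene, and were left out of the counts. CHEK2 shares 1 with 3 uncharacterised genes, at 8.95, 8.95, 8.99 and 8.95 in PA arrays and 8.88, 8.87, 8.77 and 8.93 in DMSO arrays. PA lay above DMSO in every array, with a change of 0.0975 (limma adjusted p = 0.201). PMS2 shares a pair with its pseudogene PMS2CL, with changes of -0.09 (limma adjusted p = 0.19) and -0.15 (limma adjusted p = 0.148). Their signals averaged 8.858 and 6.815 in PA arrays, against 8.948 and 6.965 in DMSO arrays. RAD54B shares 1 with FSBP, at a change of 0.02 (limma adjusted p = 0.879).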
